A study of Artemia franciscana with 14 samples.

Results

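The change of the transcriptome between early and late embryogenesis was followed in male embryos of the brine shrimp *A. franciscana*, gene by gene, by comparing 3 single males at 4 days post-fertilization (dpf) with 3 single males at 1–2 dpf. These 6 embryos were taken from 14 RNA-seq libraries, by the sex and stage in their labels. All were wild-type whole embryos with no treatment in their labels. Their library names mark them as ovoviviparous, the mode in which the mother carries the brood until larvae are released. Replicate 1 of the early group was collected at 1 dpf, and replicates 2 and 3 at 2 dpf. The late group consisted of replicates 2, 5 and 8. Sex was assigned by the study's authors from SNPs in transcripts of Z(diff), the part of the Z chromosome that has diverged from the W and is therefore present in a single copy in females (ZW) and in a pair in males (ZZ). The mother of an embryo was not given, so brood and stage cannot be told apart, and p-values measure the spread between these single embryos. The tissue label could not be checked with marker genes, since genes carry numbers (jg) in place of names.

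The RNA of an embryo was below the limit of detection and was amplified before sequencing, and all reads were counted, duplicates included. The totals ranged from 2669131 to 7463397 reads per male, with the lowest in replicate 8 at 4 dpf. Of 19421 genes, 8772 had enough reads to be tested, 5675 had no read in any of the 6 males, and 4974 had reads but too few. Levels are given as CPM, reads of a gene scaled to a common library size with TMM factors, in which 3 reads are worth between 0.431 and 1.06 CPM, depending on the library. CPM values are not corrected for transcript length, so they are compared between embryos and not between genes. In whole embryos, fewer cells of a type and less RNA per cell cannot be told apart.

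The early stage corresponds to the blastula and the late stage to the time after gastrulation. In animals, the first divisions run on RNA that the mother placed in the egg. This RNA is later degraded and replaced by transcripts of the embryo's own genome, and gastrulation and the formation of organs then bring further genes into use. Genes that fall in such a comparison thus can include maternal RNA, and genes that rise can include those of differentiating tissues, but the counts alone do not separate these sources.

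Between the stages, 209 genes were higher and 83 were lower in males at 4 dpf, at an adjusted p-value under 0.05 in edgeR's quasi-likelihood test. These were 2.38% and 0.946% of the genes tested. The levels of the 2 stages were without overlap for 1221 genes on the higher side (13.9%) and 990 on the lower side (11.3%), and these numbers include all 209 and all 83 called genes. Before adjustment, the p-value was under 0.05 for 1463 genes, 847 of them higher at 4 dpf and 616 lower. The median log2 fold change over all genes tested was 0.0077, with 4416 genes above 0 and 4356 below. The changes that were called were large. Among the 209 genes, 28 changed less than 4-fold, 77 from 4-fold to 16-fold and 104 at least 16-fold by the fitted values, with a median log2 fold change of 3.94. Among the 83 genes, these numbers were 18, 29 and 36, and the median size of the change was 3.26 on the log2 scale. A further 107 genes on the higher side and 53 on the lower side had a fitted change of at least 16-fold and were not called.

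**Figure D1:**
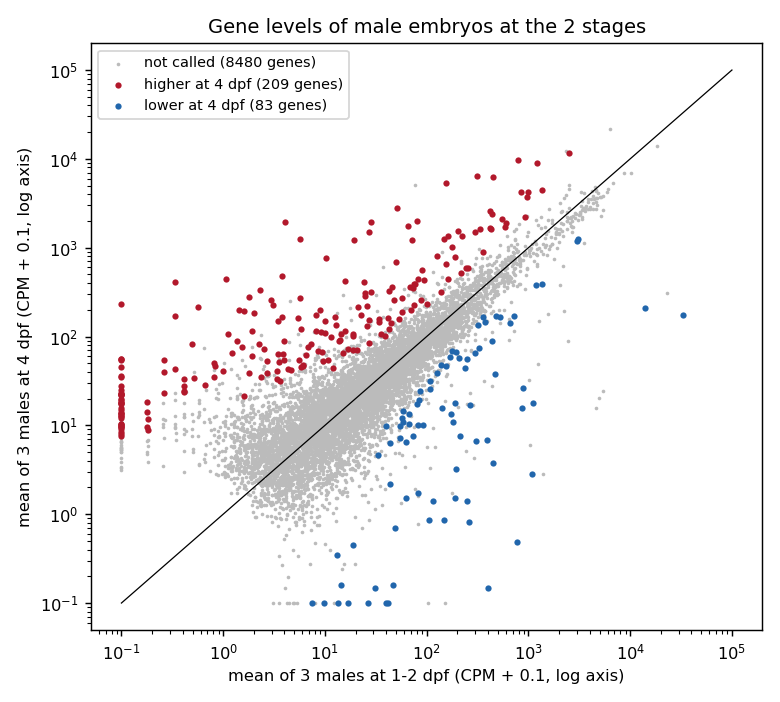
Mean level of each of the 8772 genes tested in the 3 males at 1–2 dpf (x axis) and the 3 males at 4 dpf (y axis), both in CPM plus 0.1 on log axes, with the diagonal marking equal levels. The 209 genes called higher (red) reach down to genes without a read at 1–2 dpf, and the 83 genes called lower (blue) include a pair above 10000 CPM at 1–2 dpf.

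The calls rested on all 6 males. They numbered 241 higher and 125 lower without replicate 1 at 1–2 dpf, the 1 dpf embryo, 84 and 19 without replicate 2 and 116 and 35 without replicate 3. Without replicate 2 at 4 dpf they numbered 112 and 51, without replicate 5 they numbered 55 and 10, and without replicate 8, the shallowest library, 63 and 17. Of the 209 and 83 genes, 49 and 7 were called in each of these 6 comparisons. DESeq2 called 533 genes higher and 305 lower, and these included all 209 and all 83. Embryos of one stage resembled each other more than embryos of different stages, with Pearson correlations of log2 CPM across genes between 0.783 and 0.883 within a stage and between 0.676 and 0.737 across stages. The 2 dpf males were the pair with the highest correlation. These are correlations over genes, which are not independent replicates.

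The 10 genes with the smallest p-values among those that rose were 2.88 or more higher on the log2 scale. In the following, values of 1–2 dpf are given for replicates 1, 2 and 3 and values of 4 dpf for replicates 2, 5 and 8, in this order. The smallest p-value belonged to jg8673, which was low at 1–2 dpf, with 5.65, 4.998 and 5.93 CPM, and had 1696, 1146 and 957 CPM at 4 dpf. The early males were nearly equal and the stages far apart (log2 fold change 7.83, standard error 0.37, adjusted p = 0.000173). The second was jg9685, with 70.4, 56.7 and 67.4 CPM at 1–2 dpf and 1968, 2015 and 1249.9 CPM at 4 dpf. The late males all lay over 10 times above the early ones, with replicate 8 the lowest (log2 fold change 4.75, standard error 0.31, adjusted p = 0.00104). A gene of high read share, jg13290, had 1083, 1265 and 1278 CPM at 1–2 dpf and 8946, 8998 and 8787 CPM at 4 dpf. It was the most even of the 10 within the late stage, and its change of 2.88 on the log2 scale was the smallest of them (standard error 0.22, adjusted p = 0.00142).

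The other genes of this group differed in their level at 1–2 dpf. jg2050 went from 7.30, 3.75 and 0.712 CPM to 1607, 2161 and 2139 CPM (log2 fold change 8.96, standard error 0.77). Its early levels differed among the embryos, but all of them were far below those of 4 dpf. jg13910 had 3 reads in all at 1–2 dpf, in replicate 3, and 163, 176 and 174 CPM at 4 dpf, a ratio of 704 with a counting interval from 241 to 3418. jg11446, jg8743, jg9700, jg8808 and jg21087 had log2 fold changes of 4.64, 6.23, 4.11, 5.79 and 3.06, and the largest adjusted p-value of the 10 was 0.00196. All 10 were called in each comparison that left out 1 male.

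**Figure D2:**
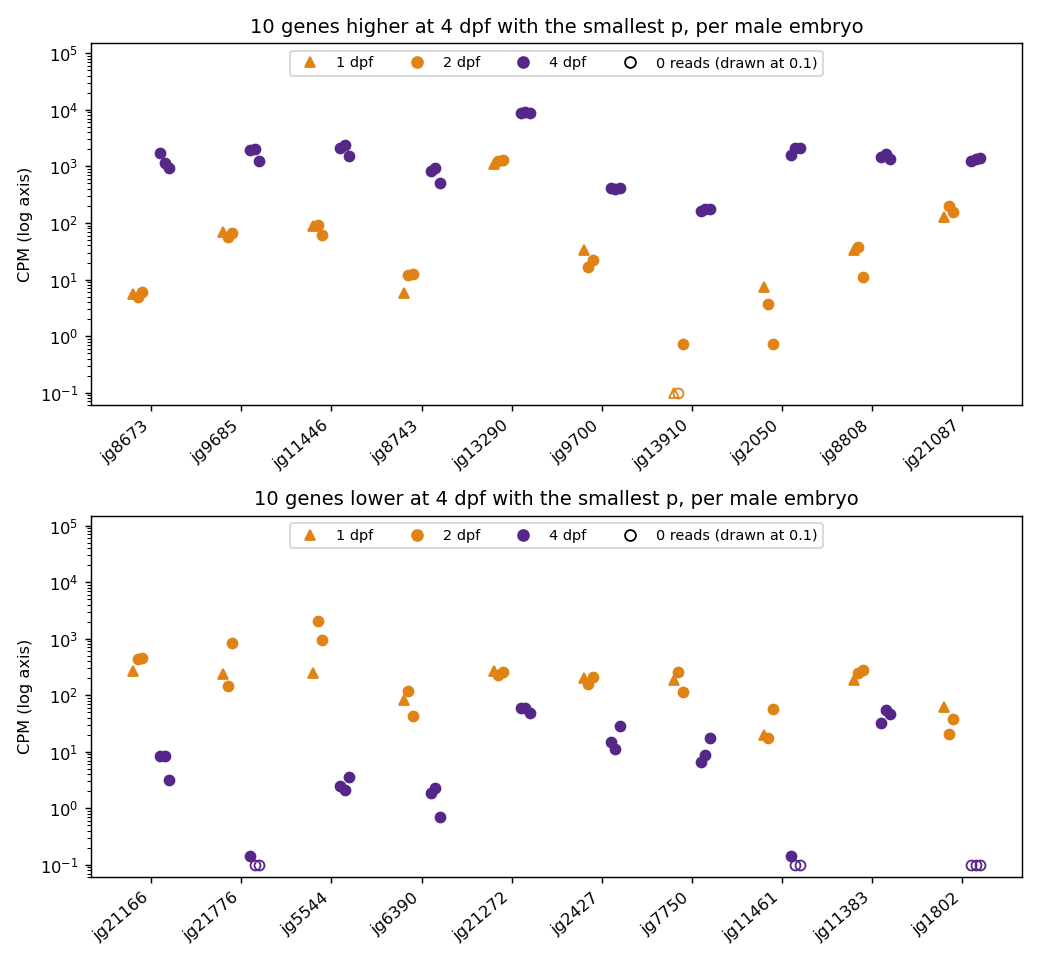
Level in each male embryo (CPM, log axis) of the 10 genes with the smallest p-values that were higher (top) and lower (bottom) at 4 dpf. Points are single embryos of 1 dpf (triangle), 2 dpf and 4 dpf, open symbols have 0 reads, and the stages do not overlap in any of the 20 genes.

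A part of the genes that rose had few or no reads at 1–2 dpf. Of the 209 genes, 51 had at most 3 reads in each early male, and 38 of these had none at all, while 35 already had a mean of at least 100 CPM. The 51 genes had enough reads to be tested only through the late males. Their direction and the gap between their stages were thus fixed beforehand, and their adjusted p-values are descriptive. The highest level among genes absent at 1–2 dpf was that of jg17358, which had 0 reads in the 3 early males and 188, 347 and 155 CPM at 4 dpf. It was thus at least 307-fold higher, against 3 reads in the early library in which they weigh most (adjusted p = 0.00202). jg18868 had 3 reads in replicate 1, none in the other early males, and 85.0, 687 and 456 CPM at 4 dpf, a ratio of 1547 with a counting interval from 529 to 7503. Among the late males it was low in replicate 2. The same embryo was low for jg9667, with 4.74 CPM against 98.4 and 65.7 CPM, after 0 reads at 1–2 dpf (at least 75.1-fold higher, adjusted p = 0.0351). jg9667 was not called without any 1 male other than replicate 2 at 4 dpf, with adjusted p-values up to 0.131. For jg2021, also without reads at 1–2 dpf, the late males had 0.862, 53.7 and 125 CPM, a spread that kept it out of the test. In total, 2219 genes had at most 3 reads in each early male and reads at 4 dpf. Of these, 107 were tested and 51 called.

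On the lower side, the smallest p-value belonged to jg21166, with 269, 445 and 458 CPM at 1–2 dpf and 8.47, 8.38 and 3.18 CPM at 4 dpf. Every late male was below every early one by a factor of more than 10, and the log2 fold change was -5.83 (standard error 0.48, adjusted p = 0.00186). jg5544 varied more among the early males, with 249.7, 2061 and 951 CPM, and had 2.44, 2.14 and 3.53 CPM at 4 dpf (log2 fold change -8.67, standard error 0.89, adjusted p = 0.00289). The 1 dpf male was the lowest of the early group for both genes. A smaller and more even fall was seen for jg21272, from 269, 224 and 259 CPM to 58.7, 60.4 and 48.8 CPM (log2 fold change -2.16, standard error 0.25, adjusted p = 0.00546). All 3 late males kept a level within the range from 48.8 to 60.4 CPM.

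Other genes were nearly lost. jg21776 had 239, 146 and 825 CPM at 1–2 dpf and 1 read in the 3 late males together, a ratio of 6272 with a counting interval from 1125 to 247789 (adjusted p = 0.00224). jg1802, with 61.5, 20.7 and 38.0 CPM at 1–2 dpf, had no read in the late males, which is at least 37.8-fold lower against 3 reads in the shallowest late library (adjusted p = 0.00901). Both had at most 1 read in a late male and were read in each early one. jg6390, jg2427, jg7750 and jg11383 had log2 fold changes of -5.56, -3.42, -4.10 and -2.41, and jg11461 had 1 read at 4 dpf (ratio 484, counting interval from 86.4 to 19184). Of the 10 genes, jg7750 and jg11461 were not called without replicate 5 at 4 dpf (adjusted p = 0.0527 and 0.0506), nor jg11383 without replicate 8 (adjusted p = 0.0523). In the fit of all 12 embryos, jg2427 and jg11461 were not called (adjusted p = 0.0817 and 0.0723).

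Among the 83 genes that fell, 11 had at most 3 reads in each late male, 7 of them none, and 44 kept a mean of at least 10 CPM at 4 dpf. The 11 genes had enough reads to be tested only through the early males. Their direction was thus fixed beforehand, and their adjusted p-values are descriptive. Some genes that were lost by 4 dpf but had been high in 1 early male did not pass the test. jg6997 had 0.707, 12.2 and 2997 CPM at 1–2 dpf, and its neighbour by number, jg6998, had 7.30, 4.00 and 448 CPM. Both were high in the same 2 dpf male, replicate 3, and jg6997 had 2 reads and jg6998 none at 4 dpf. The first was too uneven to be tested and the second had an adjusted p-value of 0.105. In the same way, jg20970 was high in the 1 dpf male alone, with 528, 0.250 and 9.01 CPM, and jg21732 in replicate 2, with 9.42, 274 and 27.3 CPM (adjusted p = 0.0508). In both, the late males had no read.

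The genes that rose took over a larger part of the sequenced RNA. They held 2.21%, 2.07% and 1.60% of the reads of the early males and 12.9%, 14.3% and 13.1% of those of the late males. The genes that fell held 4.03%, 9.34% and 7.18% at 1–2 dpf, least in the 1 dpf male, and 0.583%, 0.554% and 0.645% at 4 dpf. These shares are a description of genes chosen on the same counts. The reads at 4 dpf were spread over many of the genes. The 5 called genes with most reads, which were picked after their values had been seen, held 32.4% of them. They were jg6029, jg21213, jg13290, jg14473 and jg21214, and jg6029 had 3931, 2418 and 1195 CPM at 1–2 dpf and 10968, 11028 and 13197 CPM at 4 dpf (log2 fold change 2.22, standard error 0.41, adjusted p = 0.029). Its early level was highest at 1 dpf, and the stages did not overlap.

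**Figure D3:**
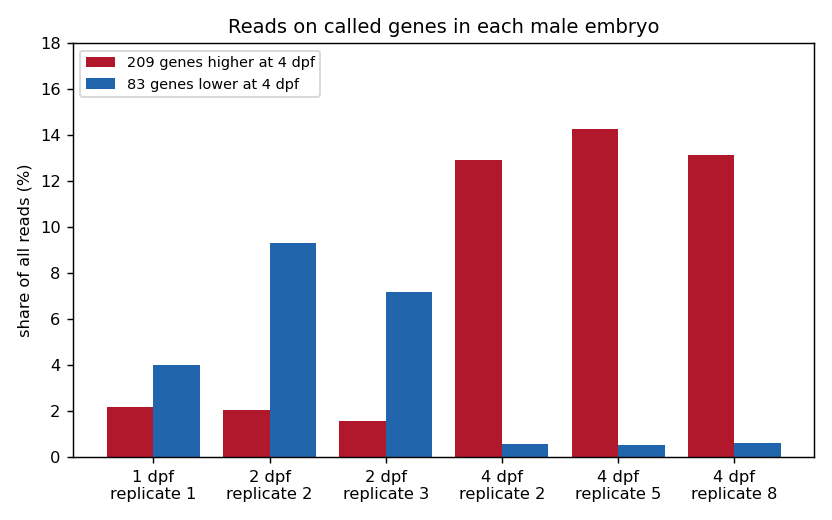
Share of all reads (%) that fell on the 209 genes called higher (red bars) and the 83 genes called lower (blue bars) at 4 dpf, in each male embryo. The red bars are at most 2.21% at 1–2 dpf and at least 12.9% at 4 dpf, and the blue bar of the 1 dpf male is the lowest of the early ones at 4.03%.

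The reads on genes that fell were concentrated. At 1–2 dpf, jg17559 alone, an uncharacterized protein gene, held 45.0% of them and jg7234, likewise named after its values had been seen, 18.9%. jg17559 was the gene with the largest share of all reads at this stage, with 13062, 47385 and 37944 CPM, and it had 7.04, 203 and 313 CPM at 4 dpf. Even the lowest early male was over 10 times above the highest late one (log2 fold change -7.56, standard error 1.33, adjusted p = 0.0249). The call was lost without replicate 2 or 3 at 1–2 dpf or replicate 5 or 8 at 4 dpf, with adjusted p-values up to 0.13, in the fit of all 12 embryos (adjusted p = 0.0837) and with robust dispersions (adjusted p = 0.0711). jg7234 had 3409, 25946 and 12188 CPM at 1–2 dpf and 48.3, 252 and 327 CPM at 4 dpf (log2 fold change -6.05, adjusted p = 0.0194). jg14428 behaved alike in order, with 1476, 48587 and 18954 CPM and then 11.1, 389 and 528 CPM, but was not called (adjusted p = 0.0795). In all of these genes the 1 dpf male was the lowest of the early and replicate 2 the lowest of the late males.

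The genes with most reads at 4 dpf were jg14951, jg21071 and jg21215. jg14951, on chromosome 1, had 1507, 10847 and 6643 CPM at 1–2 dpf and 22987, 20199 and 22698 CPM at 4 dpf. The late males were nearly equal, but the early ones differed among each other, and the change of 1.79 did not pass the test (standard error 0.59, adjusted p = 0.159). It passed without the 1 dpf male. jg21071 took a high share at both stages, 18182 ± 3058 CPM in the early and 13920.1 ± 767 CPM in the late males (mean ± SD, n = 3 each) (log2 fold change -0.39, adjusted p = 0.437). jg21215 had 2350.3 ± 1499.6 and 12421 ± 4916 CPM (SD, n = 3), with an adjusted p-value of 0.0709. The 100 genes with most reads held 37.0% to 45.3% of the reads at 1–2 dpf and 37.0% to 40.4% at 4 dpf (exact permutation test over embryos, two-sided, p = 0.3). The number of genes with reads was between 10161 and 10757 at 1–2 dpf and between 9481 and 11352 at 4 dpf (same exact test, p = 0.9), and 3 against 3 embryos cannot give a p-value under 0.1.

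H4K16ac is a histone mark tied to active genes, set on the male X of *Drosophila* by the acetyltransferase MOF. The study did not identify what sets it in *Artemia*. In *Drosophila*, MOF works within the MSL complex, where MSL1, MSL2 and MSL3 are the other protein subunits and MLE is an RNA helicase. None of these 5 genes was called in males, and their median log2 fold change was 0.035. MOF (jg3349) had 31.3, 23.0 and 36.8 CPM at 1–2 dpf and 47.2, 19.6 and 5.65 CPM at 4 dpf, so that 1 late male lay above the early range and the others below it (log2 fold change -0.32, standard error 0.70, adjusted p = 0.881). MSL2 (jg13090) was low throughout, at 0.942, 9.75 and 11.4 CPM and then 7.76, 3.21 and 0 CPM. MSL1 (jg9702), MSL3/MRG15 (jg12255) and DHX9/MLE (jg10843) had changes of 0.48, 0.38 and 0.04, with adjusted p-values of 0.743, 0.6 and 0.972. Among the other acetylation enzymes, of which CBP, GCN5 and TIP60 add and SIRT1 removes acetyl groups, 0 of 4 were called, with log2 fold changes of 0.29 (jg3149), -0.44 (jg16372), 0.92 (jg7034) and 0.08 (jg8800). Over these 9 genes the smallest adjusted p-value was 0.573, and in all 9 the early and late levels overlapped. With 2.38% of all genes called higher and 0.946% lower, a count of 0 among 9 genes is near the share over all genes.

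Of the reference genes that the study used for qPCR of young and old adults, jg15373 differed between these embryonic stages. The study did not use it as a reference for embryos. jg15373 had 284, 81.7 and 243 CPM at 1–2 dpf and 2032, 1612 and 988 CPM at 4 dpf. All late males were above all early ones, and it was called higher (log2 fold change 2.93, standard error 0.50, adjusted p = 0.0224). Leaving out replicate 3 at 1–2 dpf or any 1 late male raised its adjusted p-value to between 0.0587 and 0.106. Its listed introns lie on the minus strand of chromosome 1, from 27332927 to 27343933 in the assembly the study used. jg3163, the other reference gene, had 117, 103 and 58.4 CPM and then 89.5, 61.5 and 82.0 CPM, which overlap (log2 fold change -0.26, adjusted p = 0.786).

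Among genes that the study examined for retained introns, jg5037, annotated as similar to serine/arginine repetitive matrix protein 1, rose from 54.4, 247 and 161 CPM to 7036, 4689 and 4122 CPM. Proteins of this family take part in pre-mRNA splicing in other animals. The late males were all over 10 times above the early ones (log2 fold change 5.10, standard error 0.59, adjusted p = 0.00494), and the gene stayed called without any 1 male. Its listed intron lies on chromosome 18 from 16495498 to 16500882, minus strand. jg5498 had 2719.8, 2788 and 2005 CPM and then 5400.1, 4952 and 4780.4 CPM, without overlap, but an adjusted p-value of 0.0534.

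In 4 other genes of that group, the 1 dpf male stood apart as the highest of the early males. For jg17559, described above and also of that group, it was the lowest of them. jg9900 had 3668 CPM in the 1 dpf male, 74.7 and 1.42 CPM in the 2 dpf males and 22.1, 53.0 and 72.4 CPM at 4 dpf. jg22222 had 2986, 144 and 0.474 CPM and then 6.75, 6.42 and 4.59 CPM, and jg18052 had 266, 46.0 and 14.5 CPM and then 4.60, 3.92 and 1.06 CPM. For jg9900, jg22222 and jg18052, the order of the early males from high to low was replicate 1, 2, 3. jg22016, which encodes a Tudor domain protein, had 470.1 CPM in the 1 dpf male, 10.2 and 7.35 CPM in the 2 dpf males and 30.0, 33.5 and 243 CPM at 4 dpf. Tudor domains bind methylated arginine or lysine. None of these 4 genes was called, with adjusted p-values of 0.286, 0.117, 0.0527 and 0.881, and without the 1 dpf male the log2 fold changes of jg9900 and jg22016 turned to 0.35 and 3.52 (adjusted p = 0.921 and 0.128). DESeq2 called jg22222 and jg18052 lower (adjusted p = 0.0037 and 1.45e-06). The 2 dpf females, replicates 9 and 12, did have this RNA. They held 10799 and 6632 CPM of jg9900 and 2179 and 768 CPM of jg22222. For jg18052 they had 1165 and 567 CPM, and for jg22016 633 and 297 CPM. All 4 genes were called lower at 4 dpf in females. There was 1 male of 1 dpf, so a difference between days and a difference between embryos cannot be told apart.

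**Figure D4:**
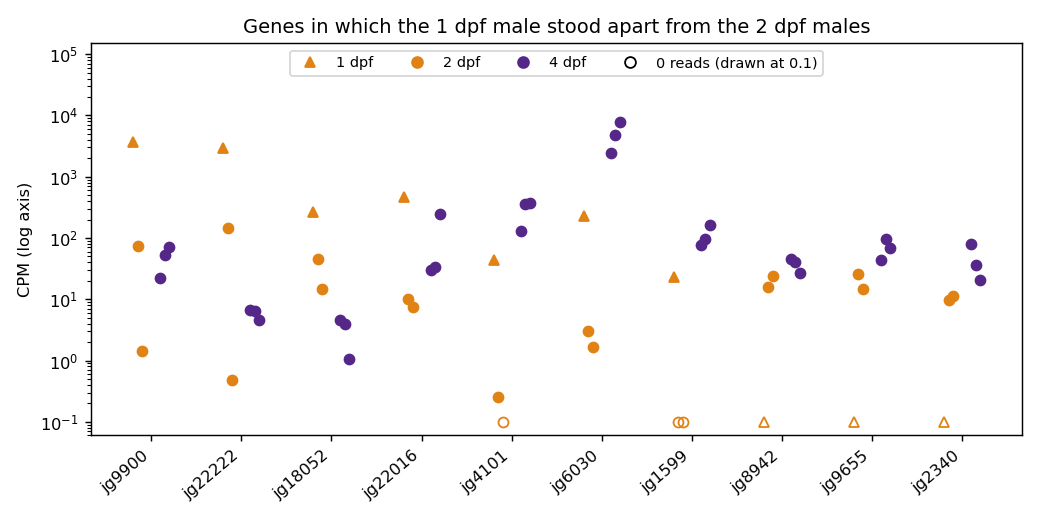
Level in each male embryo (CPM, log axis) of 10 genes in which the 1 dpf male (triangle) stood apart from the 2 dpf males (orange circles), with 4 dpf in purple and 0 reads as open symbols. The first 4 genes were highest at 1 dpf, the next 3 had reads in the 1 dpf male and nearly none in the 2 dpf males, and the last 3 had no read in the 1 dpf male.

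The next 6 genes were picked as the 3 highest and 3 lowest in the 1 dpf male relative to both 2 dpf males. They were tested genes with a mean count above 100 and stages without overlap. That the 1 dpf male stood apart and that the stages did not overlap was thus fixed by the choice. In 3 of these genes the 1 dpf male had reads that the 2 dpf males nearly lacked. jg6030 had 225 CPM at 1 dpf, 2.999 and 1.66 CPM at 2 dpf and 2477, 4808 and 7854 CPM at 4 dpf (adjusted p = 0.113). jg4101 and jg1599 showed this order at lower levels, with 44.3 and 23.1 CPM at 1 dpf and at most 1 read in a 2 dpf male. The 2 dpf females, replicates 9 and 12, did have this RNA, with 152 and 116 CPM of jg6030, 67.2 and 82.6 CPM of jg4101 and 81.4 and 17.2 CPM of jg1599. The reverse held for jg8942, jg9655 and jg2340 in males. They had 0 reads at 1 dpf, between 9.75 and 25.7 CPM at 2 dpf and between 20.8 and 95.2 CPM at 4 dpf. Females did not show this order for jg8942, with 15.5 CPM in the 1 dpf female, replicate 3, and 0.272 and 0.224 CPM at 2 dpf. For jg9655 the same females had 17.6, 35.6 and 0 CPM, and for jg2340 0.777, 2.18 and 0 CPM. None of these 6 genes passed the edgeR test of all 6 males. Without the 1 dpf male, jg6030, jg4101 and jg1599 passed it (adjusted p = 0.00127, 0.00235 and 0.00327). In that fit jg8942, jg9655 and jg2340 did not pass (adjusted p = 0.341, 0.112 and 0.145). The genes were picked for their level in that male, so a gain without it was partly fixed beforehand. Of the 6, jg6030 alone was called with DESeq2, without a filter on low counts and in the fit of all 12 embryos. Of the 4462 genes with a mean count above 100, 64 were more than 4-fold above and 123 more than 4-fold below both stage mates in the 1 dpf male, against 12 to 34 above and 20 to 51 below in a 2 dpf male, and 10 to 36 above and 23 to 75 below in a 4 dpf male. Among the 209 genes that rose, the 1 dpf male was the farthest from the 4 dpf level for 60, the nearest for 67 and between the 2 dpf males for 82. For the 83 genes that fell, these numbers were 20, 44 and 19. Its nearest share was thus 32.1% and 53.0%, beside 39.9% and 42.2% of all genes with a fitted change in that direction.

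Of the 176 genes numbered from jg9743 to jg9949, both of which the study places in Z(diff), 89 were tested, and 5 were called higher (5.62%) and 0 lower, at a median log2 fold change of -0.051. The called genes, here and in the next region named after their values had been seen, were jg9898, jg9904, jg9896, jg9897 and jg9847. jg9898 had 29.0, 21.2 and 26.8 CPM at 1–2 dpf and 182, 225 and 262 CPM at 4 dpf (log2 fold change 3.12, standard error 0.30, adjusted p = 0.00232). Its neighbours by number rose from lower levels: jg9896 from 7.77, 0.250 and 2.14 CPM to 154, 164 and 134 CPM, and jg9897 from 0, 1.25 and 0 CPM to 28.0, 52.6 and 20.8 CPM. All 3 were apart between the stages in every male. In the pseudoautosomal region (PAR), from jg8968 to jg9331, 175 of 331 genes were tested, 7 were higher (4.00%) and 2 lower (1.14%), at a median of 0.050. Here jg9031 rose from 6.36, 2.00 and 2.61 CPM to 128, 229.8 and 136 CPM (log2 fold change 5.48, adjusted p = 0.00289), and jg9067 fell from 63.1, 48.7 and 52.0 CPM to 6.32, 8.74 and 6.01 CPM (log2 fold change -2.95, adjusted p = 0.0112). Of the 8503 other numbered genes, 2.32% were higher and 0.953% lower, and no test between these regions was made.

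Called genes with a position on chromosome 1 included jg15296, which rose from 1.88, 2.50 and 2.85 CPM to 101, 63.5 and 52.6 CPM, and jg15127, which rose from 7.07, 7.50 and 7.12 CPM to 67.8, 93.6 and 88.7 CPM (log2 fold changes 4.89 and 3.52, adjusted p = 0.0027 and 0.00289). Their listed introns span 22930695 to 22971791 on the plus strand and 13596062 to 13663260 on the minus strand. jg15127 was not called in the fit of all 12 embryos (adjusted p = 0.134). jg14972 rose too (log2 fold change 2.29), with 2.15 and 2.22 and adjusted p-values of 0.0505 and 0.0528 without replicate 2 at 1–2 dpf or replicate 5 at 4 dpf. jg15036 rose from 2 reads in the 3 early males (ratio 150, counting interval from 41.1 to 1241). jg15530, jg15513 and jg15384 fell, with changes of -3.21, -1.51 and -1.85, but jg15530 was not called without replicate 8 at 4 dpf (adjusted p = 0.0621), and the latter pair were called neither without replicate 2 at 1–2 dpf nor without any 1 male of 4 dpf (highest adjusted p = 0.131 and 0.148). jg15513 was also lost without replicate 3 at 1–2 dpf (adjusted p = 0.0628), and jg15384 in the fit of all 12 embryos (adjusted p = 0.0831). Of the 307 tested genes with a listed intron on this chromosome, 10 were higher (3.26%) and 3 lower (0.977%), beside 2.38% and 0.946% of all genes tested.

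Some called genes were next to each other by number. Of the 164 genes that rose and had a tested neighbour, 21 (12.8%) had a neighbour that rose as well, where 2.38% of all genes tested rose. Of the 65 that fell, 2 had a neighbour that fell (3.08%), which is a single pair, where 0.947% of these genes fell. A gene can have a tested neighbour on each side, so the shares with a called neighbour and the shares of single genes are not like measures. Of 4824 tested pairs of neighbours, 12 rose together, 1 fell together and in 2 the calls were opposite. No test of this was made. The groups, picked for their calls, were jg1046 and jg1047, jg1943 and jg1944, jg2041 and jg2042, jg8808 and jg8809, jg9896 to jg9898, jg12092 and jg12093, jg17711 and jg17712, jg21086 to jg21088 and jg21212 to jg21214 on the higher side and jg12357 and jg12358 on the lower side. jg8808 had 32.7, 38.0 and 11.1 CPM at 1–2 dpf and 1479.5, 1670.3 and 1377 CPM at 4 dpf, and jg8809 had 15.5, 11.2 and 58.1 CPM and then 1633, 2324 and 1912 CPM. In both genes every late male was over 10 times above every early one. jg21213 and jg21214 rose to 9749 ± 2398 and 6238 ± 2171 CPM (SD, n = 3), and jg21215 beside them, described above, missed the threshold. Whether such neighbours are near-identical copies that share reads was not tested, and their separate values are uncertain for this reason.

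The same comparison in 6 female embryos, none of which entered the male test, gave 98 genes higher and 51 lower at 4 dpf (1.17% and 0.608% of 8392 genes tested). Of the 209 genes that rose in males, 200 were tested in females, 195 (97.5%) moved the same way and 67 were called. These 67 were 32.1% of the male and 68.4% of the female list. Of the 83 genes that fell, 77 were tested in females, 73 (94.8%) moved the same way and 19 were called, which were 22.9% of the male and 37.3% of the female list. None was called in opposite directions. Over all genes tested in both sexes, 65.4% moved the same way. The median change of the genes that rose was 3.83 in males and 3.40 in females, and that of the genes that fell -3.06 and -2.04, where the male values were those that chose the genes. With female replicate 12 of 1–2 dpf left out, which had reads on 6414 genes against 9718 to 11212 in the other females, the shared calls numbered 83 and 21.

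**Figure D5:**
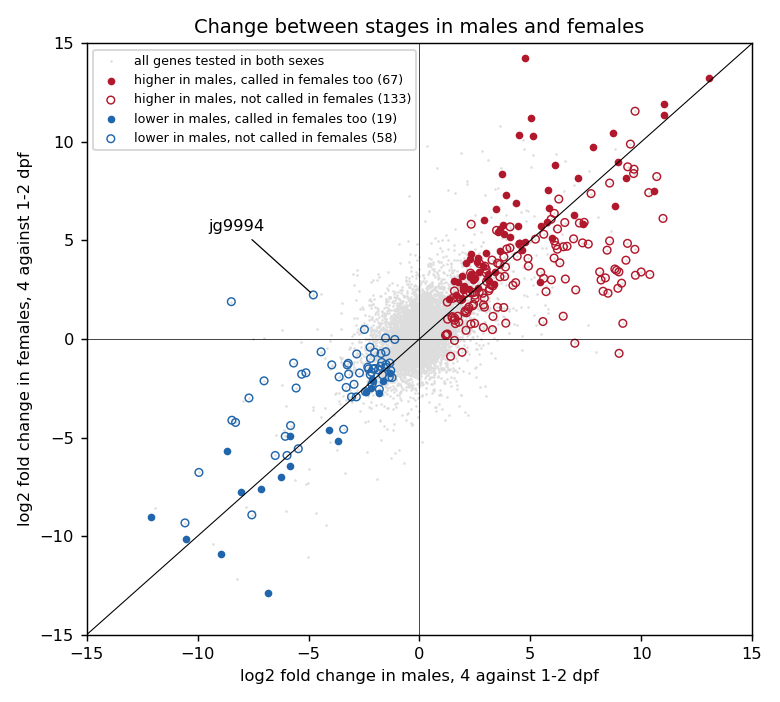
Log2 fold change between 4 and 1–2 dpf in males (x axis) and females (y axis), from separate fits of 6 embryos each, with filled symbols for genes called in both sexes and open ones for genes called in males alone. Of the 277 male calls that were tested in females, 268 lie on the same side of 0 in both sexes, jg9994 is marked as an exception, and changes of genes without reads at one stage depend on the fit.

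A difference between the sexes in the change itself was tested as an interaction over the 12 embryos. No gene passed in edgeR (0 of 9833 genes, 0%), 543 had an unadjusted p-value under 0.05, and DESeq2 called 33. The count was 22 without the 1 dpf male, 4 without male replicate 2 at 4 dpf and 1 without male replicate 2 or 3 or female replicate 12 at 1–2 dpf. The smallest p-value was that of jg11420, which rose in males from 10.4, 27.5 and 9.01 CPM to 267, 605 and 389 CPM, and in females from 0 reads to 772, 406 and 404 CPM (interaction adjusted p = 0.059). The next gene was jg5037, which had 5.70, 5.17 and 1.12 CPM in females at 1–2 dpf, below all 3 early males, and 4860.5, 5212 and 4739 CPM at 4 dpf, a range that overlaps that of the late males. Its change was 5.10 in males and 10.28 in females (interaction -5.19, standard error 0.79, adjusted p = 0.0883). For jg11420 and jg5037, the interaction adjusted p-values were 1.96e-06 and 8.81e-08 with DESeq2, and 0.0493 for both with RLE scaling. Without 1 of the 12 embryos, they ranged in edgeR from 0.00896 to 0.203 for jg11420 and from 0.00467 to 0.346 for jg5037.

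The sole adult male library, of 1840926 reads, shows which of these genes were read later in life, without a replicate. Of the 10 genes with the smallest p-values on the higher side, 9 had 0 reads in the adult male, where 0 reads allow up to 1.63 CPM. The exception was jg13910, with 1176 CPM in the adult male. Over all 209 genes that rose, 95 (45.5%) had 0 reads in the adult male, beside 36.0% of all genes tested, and 78 (37.3%) were nearer to the 4 dpf than to the 1–2 dpf level on a log2 scale. Of the 83 genes that fell, 35 (42.2%) had 0 reads in the adult and 67 (80.7%) were nearer to the 4 dpf level, beside 52.4% of all genes. A gene with 0 reads in the adult is always nearer to its lower stage. That stage is 1–2 dpf for genes that rose and 4 dpf for genes that fell. The shares were thus partly fixed beforehand and do not measure how alike the adult and a stage are. The adult differed from the embryos in RNA input and in tissue, since the study removed the germline of adults, as well as in age, and these cannot be told apart.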

How the data were processed

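RNA was sequenced from single embryos after amplification (SMART-Seq mRNA LP kit), and the authors deposited raw counts per gene from the Cogent NGS Analysis Pipeline (version 2.0.1), taken from all reads without collapsing UMIs. Amplified duplicates are therefore counted, and intervals and floors of 3 reads cover counting error only. Columns were assigned by barcode. Tests on the 6 males used edgeR 4.0.16 under R 4.3.3 (filterByExpr, TMM, quasi-likelihood F test, without covariates) and limma 3.58.1, and p-values were adjusted by Benjamini-Hochberg over all genes tested with a threshold of 0.05. Standard errors were derived from the estimate and its F statistic. DESeq2 1.42.0, other scalings and filters, a fit of all embryos and leaving out each embryo were alternatives. The code was tested on simulated data. Correlations used log2 CPM with a prior count of 2, and a counting interval is an exact 95% binomial interval.

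Named genes were those with a jg number in the study, the 10 called genes with the smallest p-values per direction, the 5 per direction highest among genes with at most 3 reads at the other stage, the 3 with most reads per stage, called genes with a listed intron (up to 5 per direction), the 3 with the smallest interaction p-values, and the 3 highest and lowest at 1 dpf. Members and lists were chosen with earlier results of these data known. Z(diff) and PAR were bounded by gene numbers that the study places there.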

Additional observations from a re-analysis of the deposited data

Results flagged for a closer look

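jg9994 moved in opposite directions in the sexes. In males it fell from 244, 116 and 283 CPM at 1–2 dpf to 18.1, 2.50 and 1.77 CPM at 4 dpf (log2 fold change -4.78, standard error 0.89, adjusted p = 0.0294, edgeR), while in females it had 83.6, 67.8 and 19.9 CPM at 1–2 dpf and 279.7, 274 and 253 CPM at 4 dpf (log2 fold change 2.24, adjusted p = 0.087). In neither sex did an early embryo reach into the range of the late ones. The male call was lost without replicate 2 or 3 at 1–2 dpf or replicate 5 or 8 at 4 dpf (adjusted p up to 0.124). The difference between the changes, males minus females, was -7.03 on the log2 scale (standard error 1.11) and did not pass the test over all genes (adjusted p = 0.0883, edgeR). Without 1 of the 12 embryos, that adjusted p-value ranged from 0.00412 to 0.346, and it was 7.65e-08 with DESeq2. Of the 8772 genes tested in males, 49 had stages without overlap and in opposite directions in the sexes, and 864 had them in the same direction. With 3 embryos per group, some genes separate in this way without any difference between stages. Whether 49 is more than that was not tested, so the count is no result about opposite movement.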

How the results depend on the processing

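The numbers of genes higher and lower at 4 dpf in males were 533 and 305 with DESeq2 and 330 and 171 without a filter on low counts, and 128 were higher with all 12 embryos in 1 fit. With each male left out in turn they ranged from 55 to 241 and from 10 to 125. Genes with a sex by stage interaction numbered 33 with DESeq2, 2 with RLE scaling, 6 without a filter and 0 to 22 with each embryo left out, and male calls shared with females were 86 with edgeR and 326 with DESeq2. Other scalings, the filter on a mean count above 100 and the robust fit left the counts within 1.5 times, and moved the median of all genes by less than 0.1. Of the 35 named genes that were called, 11 were lost without at least 1 male and 5 under another setting, and 0 turned around. Among named genes that were not called, 13 passed under some setting, and the change turned sign without 1 male for jg9907 (-0.51 to 0.44), jg22016 (-2.36 to 3.52), jg9900 (-5.26 to 0.35), jg9743 (-0.064 to 0.20), jg10843 (-0.12 to 0.28), jg3149 (-0.11 to 1.29), jg8800 (-0.0089 to 0.16), jg9702 (-0.056 to 0.76) and jg3349 (-1.25 to 0.14). No paired analysis was possible, since each embryo was sequenced at 1 stage and replicate numbers do not link embryos across stages. The depth limits genes under about 1 CPM, and the day of the early males, the mother and the lowest depth, in replicate 8 at 4 dpf, could not be separated from single embryos.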
